A study of Mus musculus with 9 samples.

Results

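The nuclear-encoded genes of the respiratory chain were examined in a hepatocyte line exposed to bone cell vesicles. The members were the protein-coding genes whose mouse symbol starts with Nduf, Uqcr or Atp5, the Sdha to Sdhd genes, and the symbols Cox4 to Cox8 followed by a letter. Of 107 genes of any type whose symbol fits, 13 pseudogenes and long non-coding RNAs were set aside, which left 94 members of the 21959 genes listed. By symbol, 46 belonged to complex I, 4 to complex II, 8 to complex III, 18 to complex IV and 18 to complex V. The rule is written on names alone. The symbol Ndufa4 puts that gene in complex I here, although its protein is known as a complex IV subunit, and 2 identifiers carry the symbol Atp5o.

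The data were gene counts and FPKM (counts scaled by gene length and library total) from 9 bulk RNA libraries of AML12 cells, a line of mouse hepatocytes from an animal with a transforming growth factor alpha transgene. The cells of all 3 groups were under free fatty acid load. EV_anta483 cells received extracellular vesicles of aged osteocytes, pre-incubated for 30 min with an antagomir against miR-483-5p, at 2 µg/ml. EV_antaNC cells received such vesicles pre-incubated with a control antagomir, and Veh cells received phosphate-buffered saline. Antagomirs are chemically stabilised oligonucleotides complementary to a microRNA, used to silence it. Each group had 3 libraries. No group received vesicles alone or the control antagomir alone, so EV_antaNC against Veh cannot tell vesicles from antagomir. One label names ultracentrifugation and another ultrafiltration for the vesicle step. Nothing in the labels says that the libraries of a group were separate cultures, so p-values measure the spread between libraries, which may be technical.

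The chain oxidises NADH at complex I and succinate at complex II, and passes electrons through complex III and cytochrome c to complex IV, which reduces oxygen. Complexes I, III and IV pump protons across the inner mitochondrial membrane, and complex V, the ATP synthase, uses that gradient to make ATP. Hepatocytes feed the chain with electrons from fatty acid oxidation, and most of its subunits are encoded in the nucleus while a few central ones are encoded in mitochondrial DNA.

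Library totals ran from 17298814 to 21737643 counts, and 11562 genes passed the filter on low counts. Hepatocyte markers were low. Alb had 1.71 to 7.28 CPM (counts scaled to a common library total) over the 9 libraries and Fgb at most 1 count, while Hnf4a had 48.3 to 67.1 CPM. For markers and for the count floor given below, CPM used the library total alone. For the members and the other pathway genes it also used edgeR's TMM factors. The summed level of 7 hepatocyte markers was 58.3 to 70.8 CPM in EV_anta483, 73.6 to 81.0 CPM in EV_antaNC and 69.8 to 72.8 CPM in Veh. The 4 bile duct markers, with Krt19 and Krt7 leading and Epcam at 0 in every library, summed to 3737 to 4038, 3509 to 3640 and 3738 to 3801 CPM in EV_anta483, EV_antaNC and Veh. Both sums moved between groups, and their part in the results below was not tested. The osteocyte markers Sost and Dmp1 were at 0 in every library, and all 4 osteocyte markers summed to at most 0.495 CPM. In bulk RNA, fewer cells of a type and less RNA per cell cannot be told apart.

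The respiratory chain genes were expressed at high and very uneven levels. Averaged over the 9 libraries, 64 of the 94 members reached 10 FPKM, 11 reached 100 FPKM and 10 were under 1 FPKM, with a median of 28.9 FPKM. The plot of levels by complex shows this order.

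**Figure D1:**
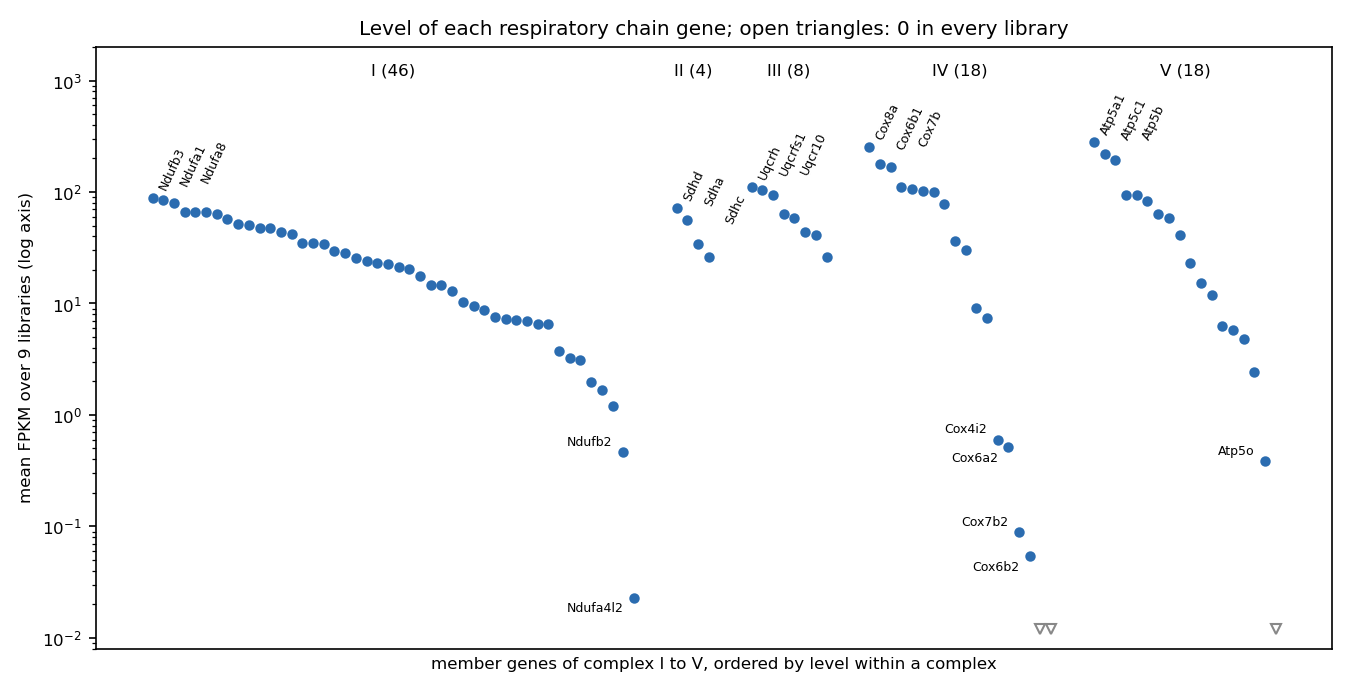
Mean FPKM of each member over 9 libraries on a log axis, ordered within complexes I to V, whose numbers of members stand in brackets. Atp5a1 stands highest at 279.5 FPKM, the paralogs Cox6b2, Cox7b2 and Ndufa4l2 lie under 0.1 FPKM, and open triangles mark 3 members at 0 in every library.

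In complex I the highest levels were 89.2 FPKM for Ndufb3, 85.3 FPKM for Ndufa1 and 79.0 FPKM for Ndufa8, all accessory subunits. Ndufv1, the core subunit that binds NADH, had 47.7 FPKM, and Ndufs1, which carries iron-sulfur clusters, had 9.48 FPKM. Complex II had 71.5 FPKM for Sdhd and 34.2 FPKM for Sdhc, its membrane anchors, and 56.2 FPKM for Sdha, the subunit with the succinate site. In FPKM, the core subunit Ndufs1 was thus far below the leading accessory subunits of its own complex. For the 91 members with a count, FPKM divided by all annotated exon bases of a gene, which can exceed 1 transcript. Ranks between genes depend on that length. In complex III, Uqcrh, the hinge protein beside cytochrome c1, had 109.9 FPKM and the Rieske protein gene Uqcrfs1 had 105.2 FPKM. In complex IV, the small subunits Cox8a, Cox6b1 and Cox7b had 252.3, 178.4 and 168.7 FPKM. In complex V, the subunits alpha, gamma and beta of its F1 part (Atp5a1, Atp5c1 and Atp5b) had 279.5, 220.1 and 193.5 FPKM. Subunits of the F1 part of ATP synthase and small subunits of complex IV thus held the top of the list.

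Some low members share sequence or strand with other genes. Atp5o, a stator stalk subunit, had 0.384 FPKM and 6 to 31 counts, and its second identifier, which overlaps it and Donson, had 0 counts. Of its exon bases, 35.6% overlap genes on the opposite strand. Near copies in other genes cover 76.7% of the longest transcript of the Atp5o identifier that had counts. Ndufb2 had 0.467 FPKM over an exon length of 5628 bases. Over all members, 29 have a near copy in another gene (95% identity over 100 bases or more), 8 of them over at least 50% of the transcript, and 29 overlap an exon on the opposite strand, 4 of them over at least 25%. The counting strand is not given in the sources used here, so reads of such genes may be split and their levels are uncertain.

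Several subunits have paralogs known from heart, muscle, lung or testis, and these were nearly absent. Cox8b and Cox8c, a muscle and a testis form, had 0 counts in all 9 libraries, where 3 counts over all libraries correspond to 0.018 CPM. Cox6b2, Cox7b2 and Ndufa4l2 had at most 3 counts in a library. Cox4i2 took 0.622%, 0.652% and 0.484% of the Cox4i1 and Cox4i2 level in EV_anta483, EV_antaNC and Veh, with 1 to 14 counts a library. Cox6a2, the heart and muscle form, took 0.605%, 0.349% and 0.422% of its pair. Cox7a1, also a heart and muscle form, was the exception, with 5.51 to 8.51 FPKM. It made up 8.35% ± 1.47 of the Cox7a1 and Cox7a2 level in EV_anta483, 8.59% ± 0.82 in EV_antaNC and 9.06% ± 0.64 in Veh (SD, n = 3 each). Those shares differed by less than 1 SD between the vesicle groups.

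Subunit c, which forms the rotor ring of ATP synthase, is encoded by 3 genes for the same mature protein. Atp5g2 gave 59.6% ± 1.07 of their summed FPKM in EV_anta483, 57.6% ± 1.05 in EV_antaNC and 57.7% ± 0.33 in Veh (SD, n = 3 each). Atp5g3 gave 37.6%, 39.2% and 39.4%, and Atp5g1 gave 2.73%, 3.21% and 2.93%, in the same 3 groups. Atp5g2 led in FPKM in every library. These shares depend on gene length, as the longest transcripts have 753, 723 and 4715 bases for Atp5g2, Atp5g3 and Atp5g1. In counts a library, Atp5g2 had 2625 to 3456, Atp5g3 2294 to 3118 and Atp5g1 374 to 512. Near copies in 10 other genes cover 14.4% of the Atp5g1 transcript. None of the 3 genes was called in any comparison.

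**Figure D2:**
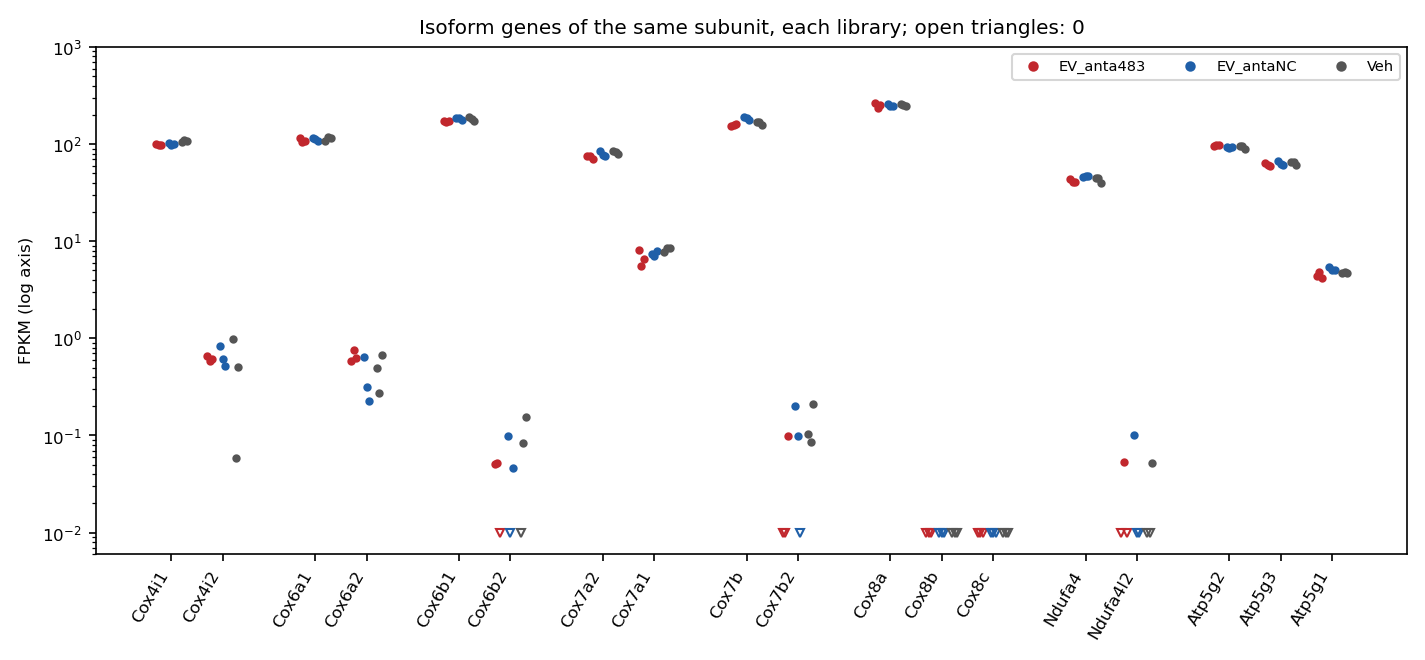
FPKM of paralogous genes of the same subunit on a log axis, 1 point per library, with EV_anta483 left, EV_antaNC in the middle and Veh right within each gene. The main form stands near or above 40 FPKM in each set, Cox7a1 lies between 5.51 and 8.51 FPKM, and open triangles mark libraries at 0.

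The summed level of all members was 4303 ± 33 FPKM in EV_anta483, 4421 ± 87.7 FPKM in EV_antaNC and 4497 ± 97 FPKM in Veh (SD, n = 3 each). EV_anta483 libraries ran from 4274 to 4339 FPKM, EV_antaNC libraries from 4357 to 4521 FPKM and Veh libraries from 4391 to 4582 FPKM. EV_anta483 lay below both other groups without overlap, while EV_antaNC and Veh overlapped. FPKM carries no correction for library composition, so these sums are a description without a test. The TMM factors of edgeR, which make that correction, were 0.9872 to 0.9949 in EV_anta483 and 1.01 to 1.015 in EV_antaNC. Dividing by them, which was not done here, would bring these 2 groups closer. The lack of overlap between them is therefore given for unscaled FPKM only. As a share of all counts the members took 0.758% in EV_anta483, 0.773% in EV_antaNC and 0.789% in Veh.

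**Figure D3:**
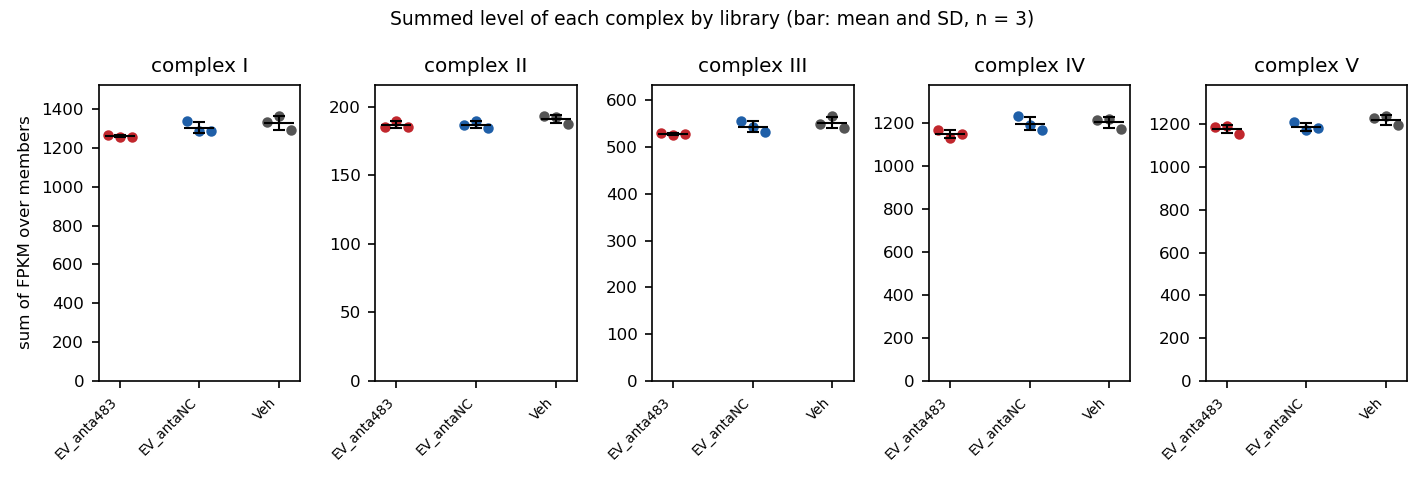
Summed FPKM of the members of each complex, 1 point per library, with the mean and SD of 3 libraries as black bars and the axes starting at 0. Complex I summed to 1263 FPKM in EV_anta483, 1305 FPKM in EV_antaNC and 1331 FPKM in Veh, and the group means of each complex stay within a narrow band.

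Split by complex, the sums for complex I were 1263 ± 6.72 FPKM in EV_anta483, 1305 ± 28.9 FPKM in EV_antaNC and 1331 ± 35.6 FPKM in Veh (SD, n = 3 each). Complex IV summed to 1147 ± 18.1, 1197 ± 31.4 and 1202 ± 26.1 FPKM in EV_anta483, EV_antaNC and Veh. Complex II stood at 186.6, 186.7 and 190.9 FPKM in those groups, and complex V at 1179, 1188 and 1221 FPKM. In unscaled FPKM, the EV_anta483 libraries lay below all EV_antaNC libraries in complexes I, III and IV, and these 2 groups overlapped in complexes II and V. The TMM factors were higher in EV_antaNC, so scaling by them would narrow these gaps. The sums by complex were not scaled or tested, and no drop of single complexes can be read from them.

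The study's design set the antagomir against miR-483-5p apart from the control antagomir. The mature microRNA is shown because it is the antagomir's target, with its seed (bases 2 to 8) in capitals. RefSeq places it on GRCm38.p6 at chr7:142654968-142654989, minus strand.
mmu-miR-483-5p: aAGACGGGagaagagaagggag
A match to the whole seed, CCCGTCT, was in the longest annotated 3′ UTR of 0 of 93 members with one, against 563 of 20884 listed protein-coding genes (2.7%). The members' 3′ UTRs are short, with a median of 201 bases against 965 bases over those genes. A match is a description of letters and not a site.

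Of the members, 86 passed the filter on low counts and were tested. The 8 others were the second Atp5o identifier and the paralogs Ndufa4l2, Cox4i2, Cox6a2, Cox7b2, Cox6b2, Cox8b and Cox8c. A gene was called where edgeR's quasi-likelihood test gave an adjusted p (Benjamini-Hochberg, over all 11562 genes) under 0.05. Each log2 fold change stands with its standard error (SE). The replicate variation behind them was small, with a median coefficient of variation over tested members of 4.04% in EV_anta483, 4.13% in EV_antaNC and 4.10% in Veh.

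In EV_anta483 against EV_antaNC, 5 members fell and none rose. They were Ndufaf7 of complex I, Uqcrh of complex III, Cox7b of complex IV, and Atp5j and Atp5s of complex V. These 5 are 5.81% of the 86 tested members, against 14.7% called over all genes tested. By direction, the background was 7.59% higher and 7.09% lower. That split of all genes, 878 higher and 820 lower, was 530 and 1155 with library size alone and 1140 and 605 with the GC and length trend removed. At an unadjusted p under 0.05, 4 of the 86 members were higher and 10 lower, against 1640 and 1598 of all 11562 genes. The median log2 fold change of the members was -0.01, against -0.002 over all genes, with 39 above 0 and 47 below. For 82 members the 95% interval of the difference lay within a 1.5-fold change.

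Atp5s, the coupling factor B that associates with ATP synthase, changed most among the called members. Its level was 10.8, 9.43 and 11.8 CPM in EV_anta483, against 14.4, 16.1 and 15.7 CPM in EV_antaNC. Every EV_anta483 library lay below every EV_antaNC library. The log2 fold change was -0.53 (SE 0.10), with an adjusted p of 0.0015 in edgeR's test. In the Veh libraries it had 11.3, 12.4 and 13.0 CPM, between the vesicle groups with some overlap with EV_anta483. The gene lies at chr12:69724950-69744660 of GRCm38 (GENCODE M21), plus strand, and has no near copy.

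Cox7b, a small subunit of complex IV encoded at chrX:106015700-106022450, plus strand, had 187, 193 and 194.5 CPM in EV_anta483, against 228, 223 and 210.1 CPM in EV_antaNC. The groups did not overlap, and edgeR's test gave a log2 fold change of -0.20 (SE 0.040) with an adjusted p of 0.00181. Veh libraries had 205, 208 and 193.5 CPM and overlapped with EV_anta483. A stretch of 24.0% of its transcript has a near copy in Gm19503, so some reads could be split between them or lost. Cox7b and Atp5s stayed called in each of the 9 fits that left out 1 library and under each of the 10 other settings.

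The other 3 called members lay closer to the threshold. Atp5j encodes subunit F6 of the stator stalk, which holds the head of ATP synthase still, and lies at chr16:84827866-84835625, minus strand. It had 43.7, 44.2 and 43.2 CPM in EV_anta483, against 52.9, 48.8 and 47.1 CPM in EV_antaNC. The log2 fold change was -0.18 (SE 0.053), with an adjusted p of 0.0249 in edgeR's test. The EV_anta483 libraries were close together and all below the EV_antaNC ones, but the call was lost without EV_antaNC 1, EV_anta483 2 or EV_anta483 3, with adjusted p up to 0.144. Of Atp5j's exon bases, 12.7% overlap Gabpa on the opposite strand.

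Uqcrh, at chr4:116066965-116075071, minus strand, had 127, 122 and 130.3 CPM in EV_anta483, against 143, 139 and 134 CPM in EV_antaNC. All EV_anta483 libraries were lower, with a log2 fold change of -0.13 (SE 0.042) and an adjusted p of 0.0422 in edgeR's test. The call was lost without EV_antaNC 1 or 2, without EV_anta483 1 or 2, and with only these 2 groups in the fit, with adjusted p up to 0.165.

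Ndufaf7, a methyltransferase needed for complex I assembly, lies at chr17:78937136-78948052, plus strand. It had 22.4, 24.3 and 22.7 CPM in EV_anta483, against 27.8, 25.1 and 28.1 CPM in EV_antaNC. The groups did not overlap, though the gap between 24.3 and 25.1 CPM was narrow. Its log2 fold change was -0.22 (SE 0.067), with an adjusted p of 0.0290 in edgeR's test. The call was lost without EV_antaNC 1 or 3, without EV_anta483 1 or 3, with DESeq2 and with the GC and length trend removed, with adjusted p up to 0.1.

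**Figure D4:**
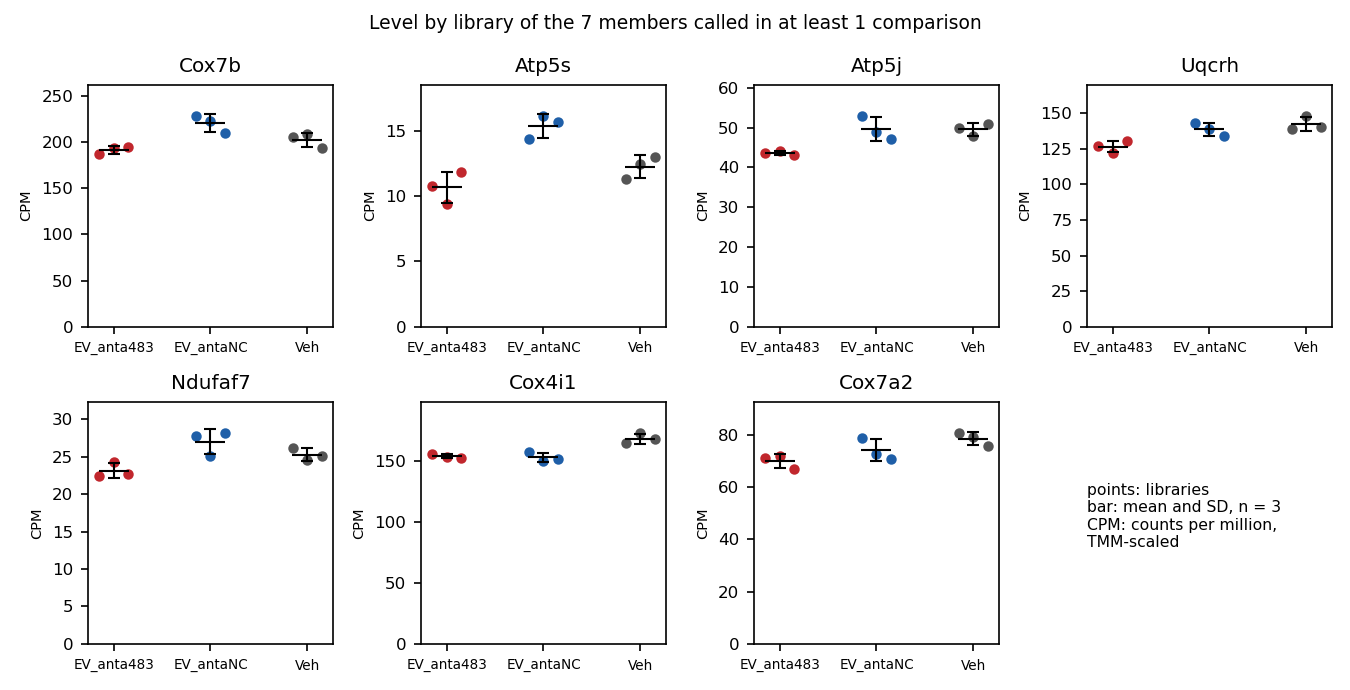
CPM by library for the 7 members called in at least 1 comparison, with axes from 0, points for libraries and bars for the mean and SD (n = 3). Atp5s had 9.43 to 11.8 CPM in EV_anta483 and 14.4 to 16.1 CPM in EV_antaNC, while the other members differ by smaller steps.

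Among complex I genes, 1 of 45 tested was called in this comparison (2.22%, against 14.7% of all genes tested). The 7 nuclear-encoded core subunits had log2 fold changes from -0.10 to 0.10, and none was called. Ndufs1 had 71.4, 76.1 and 73.8 CPM in EV_anta483, against 83.3, 79.8 and 74.7 CPM in EV_antaNC, with overlapping groups and an adjusted p of 0.134 in edgeR's test. Ndufv1 averaged 123.5 ± 5.00 CPM in EV_anta483 and 122.5 ± 4.42 CPM in EV_antaNC (SD, n = 3 each). The nuclear-encoded core subunits of complex I therefore gave no call in either direction. Those encoded in mitochondrial DNA are read further below, where mt-Nd1 was called lower and mt-Nd6 higher. Of the 8 assembly factors named Ndufaf, Ndufaf5, which modifies the core subunit Ndufs7, had the highest fold change of complex I. It had 14.8, 16.0 and 13.4 CPM in EV_anta483, against 13.2, 11.7 and 11.6 CPM in EV_antaNC, a log2 fold change of 0.27 (SE 0.097) with an adjusted p of 0.0617 in edgeR's test. The remaining 6 had adjusted p from 0.333 to 0.943.

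No complex II gene was called. Sdha had 238, 233 and 230.0 CPM in EV_anta483, against 226, 229.5 and 223 CPM in EV_antaNC, which did not overlap, with a log2 fold change of 0.047 (SE 0.034) and an adjusted p of 0.403 in edgeR's test. In complex III, Uqcrc1, a core protein, had 108.5, 112 and 117 CPM in EV_anta483, against 103, 106.5 and 102 CPM in EV_antaNC. Its log2 fold change was 0.12 (SE 0.042) and its adjusted p 0.0649 in edgeR's test. Uqcrc1 thus pointed the other way from Uqcrh within complex III without passing the test. Uqcrfs1 had 146.2 ± 5.17 CPM in EV_anta483 and 141.7 ± 4.31 CPM in EV_antaNC (SD, n = 3 each), an adjusted p of 0.506 in edgeR's test.

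Within one enzyme the fold changes had mixed signs, many of them near 0. At an unadjusted p under 0.05 in edgeR's test, complex IV had 0 members higher and 1 lower, and complex V had 2 higher and 3 lower. In complex IV, 4 fold changes were above 0 and 8 below, and Cox4i1, the subunit at which ATP is known to bind, had a log2 fold change of 0.0083 (SE 0.038). In complex V, the 5 subunits of the F1 part had log2 fold changes from 0.011 to 0.14, all above 0 and none called. Atp5g1 had 21.5, 24.1 and 20.6 CPM in EV_anta483, against 26.2, 24.3 and 24.8 CPM in EV_antaNC, with an adjusted p of 0.0787 in edgeR's test. Atp5g2 had 162, 167 and 164 CPM in EV_anta483, against 153, 151.5 and 155 CPM in EV_antaNC, with an adjusted p of 0.0869. The 2 subunit c genes thus had opposite signs and no overlap between groups, without a call. Over all members, groups did not overlap for 10 higher and 14 lower, where the background was 29.9% in either direction, 15.2% higher and 14.7% lower.

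**Figure D5:**
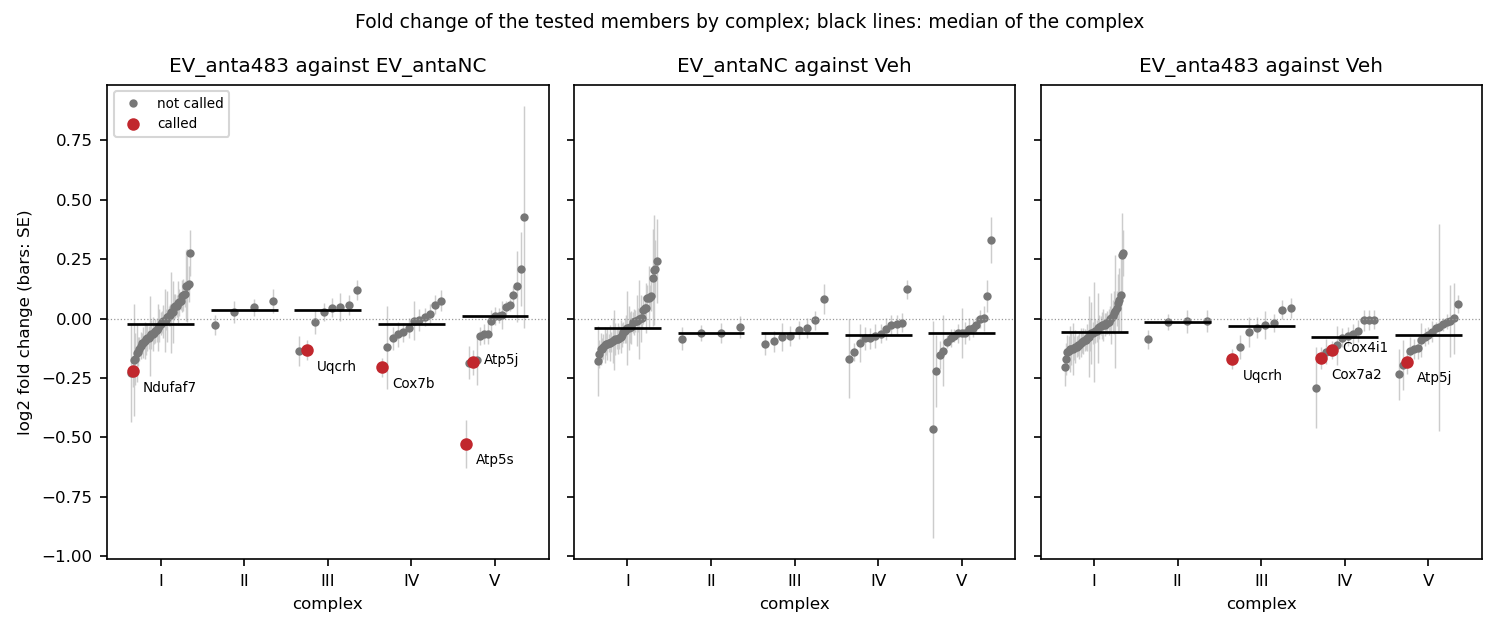
Log2 fold change of each of the 86 tested members by complex in the 3 comparisons, with SE as grey bars, called members in red and the median of each complex as a black line. Points below 0 number 47 in EV_anta483 against EV_antaNC, 68 in EV_antaNC against Veh and 72 in EV_anta483 against Veh.

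In EV_antaNC against Veh, none of the 86 members was called by edgeR's test, where the background was 1.02% of all genes. By direction the background was 0.813% higher and 0.208% lower, or 94 and 24 genes, and 157 and 6 genes with library size alone. At an unadjusted p under 0.05, 2 members were higher and 13 lower, against 800 and 761 of all 11562 genes. DESeq2 called 1 member, Cox4i1, lower. Without the filter on low counts edgeR called Atp5s higher and Atp5a1 lower. The members' median log2 fold change was -0.059, against -0.0047 over all genes, and 18 lay above 0 and 68 below. For 82 members the 95% interval of the difference lay within a 1.5-fold change.

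The members with the smallest adjusted p came from complexes V and IV. Atp5a1, the alpha subunit of the head, had 844, 844 and 849 CPM in EV_antaNC, against 912, 903 and 898 CPM in Veh. All EV_antaNC libraries were lower. The log2 fold change was -0.096 (SE 0.026), with an adjusted p of 0.0793 in edgeR's test. Cox4i1 had 158, 150.1 and 152 CPM in EV_antaNC, against 165, 173 and 168 CPM in Veh. These groups did not overlap either, with a log2 fold change of -0.14 (SE 0.038) and an adjusted p of 0.0843. Atp5s had a log2 fold change of 0.33 (SE 0.098) and an adjusted p of 0.118.

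By complex, the median log2 fold change in EV_antaNC against Veh was -0.04 for complex I, -0.061 for complexes II, III and V, and -0.069 for complex IV. All 4 complex II genes, 7 of 8 in complex III and 11 of 12 in complex IV were below 0. Ndufv1 averaged 122.5 ± 4.42 CPM in EV_antaNC and 131.3 ± 0.80 CPM in Veh (SD, n = 3 each), without overlap, and Sdha averaged 226.3 ± 3.2 and 236.2 ± 5.79 CPM in EV_antaNC and Veh. Neither was called. Groups did not overlap for 4 members higher and 21 lower, where the background was 19.3% in either direction, 8.99% higher and 10.3% lower.

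In EV_anta483 against Veh, 4 members fell and none rose. They were Uqcrh, Cox4i1, Cox7a2 and Atp5j, which is 4.65% of those tested against a background of 6.52%. By direction the background was 3.06% higher and 3.46% lower, or 354 and 400 genes, and 188 and 344 genes with limma on log2(FPKM + 1). At an unadjusted p under 0.05, 1 of the 86 members was higher and 19 lower, against 1209 and 1195 of all 11562 genes. The median log2 fold change was -0.055, against 0.00013 over all genes, with 14 above 0 and 72 below. The 95% interval lay within a 1.5-fold change for 83 members. The Veh libraries are shared with the preceding comparison, so the 2 medians are not independent, and the EV_anta483 libraries are shared with the first.

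Uqcrh had 127, 122 and 130.3 CPM in EV_anta483, against 139, 148 and 140.3 CPM in Veh. The groups did not overlap, with a log2 fold change of -0.17 (SE 0.042) and an adjusted p of 0.0191 in edgeR's test. Without Veh 2 or without EV_anta483 2 the call was lost, with adjusted p up to 0.125. Uqcrh was below 0 in the other comparison of EV_anta483 too, at -0.13, and at -0.039 in EV_antaNC against Veh.

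Cox4i1, at chr8:120668222-120674207, plus strand, had 156, 153.5 and 153 CPM in EV_anta483, against 165, 173 and 168 CPM in Veh. The log2 fold change was -0.13 (SE 0.038), with an adjusted p of 0.0432 in edgeR's test. Between the vesicle groups it differed by less than the spread of the libraries, with 154 ± 1.56 CPM in EV_anta483 and 153 ± 3.99 CPM in EV_antaNC (SD, n = 3 each). The call was lost in 7 of the 9 fits that left out 1 library, namely each Veh library, EV_antaNC 2 or 3, and EV_anta483 2 or 3, with adjusted p up to 0.188, and with only the 2 groups in the fit. Of its exon bases, 9.9% overlap Emc8 on the opposite strand.

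Cox7a2, the widespread form of its subunit, lies at chr9:79755361-79759878, minus strand. It had 71.3, 71.9 and 66.9 CPM in EV_anta483, against 80.6, 79.2 and 75.8 CPM in Veh. The log2 fold change was -0.17 (SE 0.048), with an adjusted p of 0.0432 in edgeR's test. Atp5j had 43.7, 44.2 and 43.2 CPM in EV_anta483, against 49.9, 47.8 and 50.9 CPM in Veh, with a log2 fold change of -0.18 (SE 0.053) and an adjusted p of 0.0464. In both genes all EV_anta483 libraries were the lower ones. The Cox7a2 call was lost without any 1 Veh library, EV_antaNC 2, or EV_anta483 2 or 3, and with DESeq2, with adjusted p up to 0.185. The Atp5j call held without EV_antaNC 1 or 3, was lost in the other 7 such fits, with DESeq2 and with the GC and length trend removed, with adjusted p up to 0.158.

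In the other complexes, Sdhc had 106.5, 106 and 112 CPM in EV_anta483, against 117.5, 114 and 114 CPM in Veh, which did not overlap. Its adjusted p was 0.22 in edgeR's test. Ndufaf5 was the highest of complex I again, with a log2 fold change of 0.28 (SE 0.097) and an adjusted p of 0.0925. Its EV_anta483 libraries lay above its Veh libraries of 12.8, 12 and 11.7 CPM. In complex IV all 12 tested members were below 0, in complex V 15 of 17, and in complex I 35 of 45. Groups did not overlap for 3 members higher and 22 lower, where the background was 25% in either direction, 12.3% higher and 12.8% lower.

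Set against each member's own mean over the 9 libraries, the median member stood at -0.013, -0.011 and -0.030 on the log2 scale in the EV_anta483 libraries, at 0.018, -0.031 and -0.022 in the EV_antaNC libraries and at 0.042, 0.057 and 0.003 in the Veh libraries. The first 2 Veh libraries stood highest, with 66 and 68 of the 86 members above their own mean. The third Veh library, with 46 above, lay below EV_antaNC 1, with 52 above, so these groups overlapped. The pooled SD of this median between replicates was 0.023.

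The other genes of the pathway were read from 9 lists. In EV_anta483 against EV_antaNC, the assembly factors gave 1 of 12 called for complex I (8.33%) and 1 of 21 for complex IV (4.76%), both shares below the 14.7% called over all genes tested. Both were lower, namely Acad9, at 22.6 ± 1.02 CPM in EV_anta483 and 26.7 ± 1.19 CPM in EV_antaNC (SD, n = 3 each), and Lrpprc, which stabilises mitochondrial messenger RNAs, at 49.3 ± 2.71 and 56.5 ± 2.79 CPM in the same order. None of 4 complex II factors, 7 further complex III genes and 4 complex V factors was called. Among 12 genes for cytochrome c and coenzyme Q synthesis, Pdss1, which makes the side chain of coenzyme Q, fell by 0.63 on the log2 scale (SE 0.14), with an adjusted p of 0.00443 in edgeR's test. It averaged 4.42 ± 0.34 CPM in EV_anta483 and 6.82 ± 0.43 CPM in EV_antaNC (SD, n = 3 each).

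Of 17 genes listed as regulators of respiratory chain transcription, 1 was called in that comparison (5.88%, against 14.7% of all genes tested). That gene was Nfe2l1, which is separate from Nrf1, and no other gene of the list was called. Nfe2l1 averaged 251.7 ± 6.18 CPM in EV_anta483 and 219.5 ± 7.57 CPM in EV_antaNC (SD, n = 3 each), a log2 fold change of 0.20 (SE 0.04) with an adjusted p of 0.000936 in edgeR's test. The coactivator gene Ppargc1a had 4.30 ± 0.23 CPM in EV_anta483 and 5.79 ± 1.37 CPM in EV_antaNC, with an adjusted p of 0.108. Nrf1, Gabpa and Tfam had adjusted p from 0.582 to 0.976. In the citric acid cycle, 13 genes gave 1 higher, Cs, citrate synthase, at 398.9 ± 4.6 CPM in EV_anta483 and 353.9 ± 4.48 CPM in EV_antaNC, and 1 lower, Idh3a, at 60.2 ± 2.07 and 68.0 ± 1.70 CPM in the same order. These 2 of 13 (15.4%) are near the 14.7% called over all genes tested. Over the 7 nuclear lists named so far besides the cycle, neither comparison with Veh gave a call, and in the cycle 1 of 13 was called (7.69%, against 1.02% of all genes tested), Suclg1, lower in EV_antaNC than in Veh, at 99.8 ± 1.11 and 114.1 ± 5.45 CPM.

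The subunits encoded in mitochondrial DNA were read for the same complexes, with 12 of 13 tested. Together they took 3.88% of counts in EV_anta483, 3.91% in EV_antaNC and 3.98% in Veh. In EV_anta483 against EV_antaNC, mt-Nd6 rose, with a log2 fold change of 0.23, and mt-Cytb (-0.15), mt-Atp6 (-0.20) and mt-Nd1 (-0.15) fell, which is 33.3% of the 12 against 14.7% of all genes tested. In EV_antaNC against Veh none of the 12 was called by edgeR's test, with 5 lower and 0 higher at an unadjusted p under 0.05. Of all 11562 genes, 761 were lower and 800 higher at that unadjusted p. In EV_anta483 against Veh, mt-Cytb (-0.17), mt-Co2 (-0.18) and mt-Co3 (-0.23) fell, which is 25% of the 12 against 6.52% of all genes tested. Their levels were very uneven. In EV_anta483, mt-Co1 averaged 27110 CPM, against 165.2 CPM for mt-Co2, 93.5 CPM for mt-Co3 and 46.7 CPM for mt-Atp6. These genes lie close together on both strands of a small genome, and without a known counting strand their reads may not be assigned to 1 strand. Whether reads of the low ones were lost in counting was not tested, so their calls and the summed share are uncertain.

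Outside the counts, the members were compared with all tested genes in base composition, length and promoter letters. Their median GC content was 49.9%, against 49.6% over all tested genes, and their median exon length 1737 bases, against 4525 bases. Across the 86 members, which share libraries and are not independent, Spearman's rho of the fold change with GC content was 0.35 in EV_anta483 against EV_antaNC, -0.39 in EV_antaNC against Veh and 0.066 in EV_anta483 against Veh. Over all genes tested the same values were 0.22, -0.30 and 0.016. In both comparisons with EV_antaNC libraries, rho had the same sign in the members as in all genes, while in EV_anta483 against Veh both values were near 0. The part of GC content in the calls was not tested beyond the fit with that trend removed.

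RefSeq promoters (250 bases before to 50 after the start, GRCm38.p6) were matched for 74 members. The NRF1 palindrome, whose letters are in capitals in the windows below, was in 7 of them (9.46%), against 2.49% of tested genes' promoters and 0.971% of all promoters. The core of ETS factors such as GABP, CCGGAAG, searched on both strands, was in 18 (24.3%), against 21.3% and 8.86%. The YY1 core, AAGATGGC, was in 10 (13.5%), against 5.48% and 2.75%. The ETS and YY1 letters can share 3 bases at their ends, so 1 stretch can count for both. Windows of 28 bases are shown for the called members Atp5j and Uqcrh, and for 1 promoter each of complexes III, IV and V with the NRF1 palindrome, with the motif in capitals.
Atp5j, ETS core, chr16:84835020-84835047, minus strand: gctgagggacCCGGAAGcacttaccctc
Atp5j, YY1 core, chr16:84835047-84835074, minus strand: aagtgtaggaAAGATGGCggagtcttag
Uqcrh, ETS core as its reverse complement, chr4:116075063-116075090, minus strand: gtatgccgcaCTTCCGGccaggtcgccg
Uqcrc1, NRF1 palindrome, chr9:108936669-108936696, plus strand: ctccgctctGCGCATGCGCagcgcggct
Cox6a1, NRF1 palindrome, chr5:115349102-115349129, minus strand: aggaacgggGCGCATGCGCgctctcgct
Atp5g2, NRF1 palindrome, chr15:102671071-102671098, minus strand: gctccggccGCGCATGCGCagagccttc
These letters describe the windows. The genes of the factors themselves, Nrf1, Gabpa and Yy1, were not called in any comparison. Of the 7 members called in at least 1 comparison, Cox4i1 and Atp5s have no matched promoter. Among the other 5, Atp5j and Uqcrh hold one or more of the motifs in these windows, and Cox7b, Cox7a2 and Ndufaf7 hold none of them.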

How the data were processed

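Counts per gene were deposited for each of the 9 libraries, made with HTSeq on mm10 per the submitters' processing notes, beside a deposited FPKM table. Not given in the sources used here: aligner, annotation, counting strand. The deposited FPKM of all 16770 genes with a count equals the count scaled by library total and 1 length per gene, within 0.001 base. Library totals were 17298814 to 21737643 counts. The chi-square per gene between replicates of a group was at least 2.18, and each counted as 1 sample.

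Members were found by symbol in GENCODE M21 (GRCm38, the assembly of mm10), to which 21851 of 21959 identifiers matched. Members, lists and named genes were chosen with earlier results of these data known. Named were the 3 highest members by FPKM in each complex, called members, the 3 of smallest adjusted p in each comparison, the defining subunits, isoform sets and assembly factors of the Ndufaf series. Further members with values (Atp5o, Ndufb2, Sdhc in comparisons, Uqcrc1) were chosen after their values were seen.

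Genes with enough counts (edgeR filterByExpr, smallest count 10, smallest total 15) were kept, scaled with TMM and fitted over all 9 libraries with a coefficient per group. Each comparison used the quasi-likelihood test of edgeR 4.0.16 with Benjamini-Hochberg adjustment at 0.05 over 11562 genes. The fits were tested on simulated data. Near copies came from BLAST 2.17.0 of the longest transcripts. Alternatives were DESeq2 size factors, library size alone, no filter, DESeq2 1.42.0, limma 3.58.1 on log2(FPKM + 1) or log2(FPKM + 0.1), a replicate block, removal of the GC and length trend, both together, only the 2 groups compared, and leaving out each library.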

Additional observations from a re-analysis of the deposited data

How the results depend on the processing

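No fold change of a followed member reversed past the threshold, and members called lower in the comparisons of EV_anta483 kept their direction under every setting run. In EV_anta483 against EV_antaNC the median of the members was -0.041 with library size alone and -0.039 and -0.042 with limma on log2(FPKM + 1) and log2(FPKM + 0.1), and members called higher numbered 2 with the GC and length trend removed. Leaving out 1 library gave 2 to 6 lower, 0 to 1 higher, and a median of -0.023 to 0.002. In EV_antaNC against Veh, no filter gave 1 higher and 1 lower, DESeq2 gave 1 lower, and limma gave medians of -0.030 and -0.031. Leaving out 1 library gave 0 to 0 calls in each direction and a median of -0.070 to -0.029. In EV_anta483 against Veh, 2 were lower with DESeq2 and 7 with the GC and length trend removed, and leaving out 1 library gave 0 to 4 lower, 0 to 0 higher and a median of -0.084 to -0.034. Library size alone and limma on FPKM use the library total without TMM factors. Those factors were 0.9872 to 0.9949 in EV_anta483 and 1.01 to 1.015 in EV_antaNC. The cause of these moves was not tested.

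The numbers of the libraries do not pair them by the labels. Same-numbered libraries correlated at 0.0285 to 0.245 in their deviations from group means, not all over 0.1, and not every library correlated best with its own number. Libraries numbered 1 correlated at 0.159 to 0.245 with each other, and at -0.152 to -0.0265 with libraries numbered 2 or 3 of other groups. Deviations of the libraries of a group cancel out for each gene, so a positive value with 1 library forces negative values elsewhere in its group. The negative range therefore adds nothing of its own. Whether libraries numbered 1 shared a step was not tested. With the replicate block, 3 members were higher in EV_anta483 against EV_antaNC, 2 higher and 2 lower in EV_antaNC against Veh, and 1 higher and 8 lower in EV_anta483 against Veh. With the block and the GC and length trend removed, these counts were 3 higher, 4 lower, and 1 higher with 16 lower. Over all genes, calls higher and lower with the block were 1261 and 1166 (878 and 820 without it), 312 and 210 (94 and 24), and 714 and 732 (354 and 400), and with the trend removed too 1525 and 839, 172 and 316, and 695 and 738.

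Calls over all genes behind the background moved further. In EV_anta483 against EV_antaNC, limma called 392 higher at both offsets and 881 and 887 lower, and leaving out 1 library gave 474 to 844 higher and 531 to 820 lower. In EV_antaNC against Veh there were 242 higher and 93 lower with no filter, 46 or 47 higher and 2 lower with limma, 37 and 15 with the GC and length trend removed, 145 and 35 with only the 2 groups, 133 and 36 with DESeq2, and 39 to 148 higher and 2 to 36 lower without 1 library. In EV_anta483 against Veh, limma called 188 and 184 higher and 344 and 348 lower, and leaving out 1 library gave 136 to 422 higher and 186 to 454 lower.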
